A study of Homo sapiens with 4 samples.

Results

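The clustered protocadherin genes lie in 3 neighbouring arrays on the long arm of human chromosome 5, named alpha, beta and gamma. The 53 genes described here are all protein-coding genes of GENCODE version 44 on chromosome 5 whose names start with PCDHA (15 genes), PCDHB (16) or PCDHG (22), out of 20033 protein-coding genes of chromosomes 1 to 22, X and Y. They were set against the RAD21 peaks of untreated wild-type HCT116 cells, a colon carcinoma line, of which 59 of the 56853 listed had their summit between the first and last base of these genes or within 200 kb on either side (GRCh38, chr5:140586136-141712977). A gene counted as holding a peak where a summit lay within 1 kb of its annotated 5′ end.

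The study profiled RAD21, the cleavable subunit of the cohesin ring, by chromatin immunoprecipitation followed by sequencing (ChIP-seq). Its 4 libraries were a ChIP from wild-type HCT116 cells without treatment, a ChIP from untreated HCT116_RAD21_AID cells, a ChIP from HCT116_RAD21_AID cells kept for 6 h with 2 auxins at 500 µM each (indole-3-acetic acid with alpha-naphthaleneacetic acid), and an Input of the auxin-treated cells. HCT116_RAD21_AID is 1 clone carrying the mAID degron in the RAD21 gene and expressing the OsTIR1 ubiquitin ligase. The peaks used here belong to the wild-type library, so there was no replicate and no comparison between conditions, and every difference below is a description with no test. The other 3 libraries were not analysed here.

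Clustered protocadherins are cell-surface adhesion proteins, best known from neurons, where each cell expresses its own small choice of them and thereby tells its own processes from those of other cells. In the alpha and gamma arrays each gene starts at a variable exon with its own promoter, which is spliced to constant exons shared by the whole array, whereas each beta gene is a single exon. Most of these promoters carry a conserved sequence element with a CGCT core that the zinc-finger protein CTCF binds, and many alpha genes have another CTCF site inside the variable exon. Cohesin extrudes chromatin loops and halts at CTCF bound in a convergent orientation, which is how distant enhancers downstream of the variable exons are brought to a promoter. PCDHAC2, PCDHB1, PCDHGC4 and PCDHGC5 are known as the genes without the conserved element.

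RAD21 summits sat at the 5′ ends of 34 of the 53 genes (64.2%), and they were found in all 3 arrays: 12 of 15 alpha genes, 10 of 16 beta genes and 12 of 22 gamma genes. Over all protein-coding genes the share with a summit within 1 kb was 32.3%. The summit lay within 60 bp of the 5′ end in 25 of the 53 genes, a position seen in 3.37% of all protein-coding genes. Of the genes with a summit within 1 kb, 73.5% of the clustered protocadherins and 10.1% of all other protein-coding genes had it within 60 bp. The limit of 60 bp was chosen after the data were seen. The median fold enrichment of the 34 peaks was 5.84 (range 2.75 to 31.0), beside 3.72 for the other protein-coding genes with a peak. Fold enrichment is the number of ChIP fragments over the summit divided by the local background, each with 1 added. A summit of fold enrichment 10 or more within 1 kb was present at 7 of the 53 genes and at 4.45% of all protein-coding genes.

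The peak counts rest on modest numbers of fragments. The 34 peaks held 18 to 213 fragments at their summits (median 42), and 22 of them had the lowest background in the list, 5.90 fragments. At that background the weakest peak listed anywhere in the genome had 15 fragments and a fold enrichment of 2.30, a lower limit that holds only at that background. A promoter without a listed summit within 1 kb is therefore not shown to be free of RAD21. Intervals given below are exact Poisson 95% intervals of the fragment number and cover counting error only.

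The alternate alpha genes, PCDHA1 to PCDHA13, held peaks of 2 kinds, some centred on the promoter and some inside the variable exon. The conserved element of the promoters is shown for PCDHA1, PCDHA8 and PCDHA10, which had their summit there, and for PCDHA2 and PCDHA6, which had no peak, with the CGCT in capitals and the gene strand (plus) read 5′ to 3′.
PCDHA1, chr5:140786078-140786121: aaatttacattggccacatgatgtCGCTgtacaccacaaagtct
PCDHA8, chr5:140841122-140841165: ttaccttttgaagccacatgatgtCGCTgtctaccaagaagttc
PCDHA10, chr5:140855833-140855876: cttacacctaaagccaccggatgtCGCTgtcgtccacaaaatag
PCDHA2, chr5:140794773-140794816: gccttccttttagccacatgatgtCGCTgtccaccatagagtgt
PCDHA6, chr5:140827889-140827932: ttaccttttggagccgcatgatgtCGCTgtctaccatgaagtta

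Distances are counted along the gene strand from the annotated 5′ end, with negative values upstream. At PCDHA1 the fold enrichment was 4.49 (30 fragments, interval 3.08 to 6.35) with the summit at -16 bp in a peak of 467 bp. PCDHA7 had a fold enrichment of 3.67 (27 fragments, 2.46 to 5.28) at -10 bp in a peak of 809 bp. PCDHA8 reached 6.93 (65 fragments, 5.37 to 8.80) at -45 bp in 709 bp. These summits sat next to the CGCT, 17 bp downstream of it at PCDHA1, 49 bp downstream at PCDHA7 and at -5 bp from it at PCDHA8. PCDHA10 had a fold enrichment of 7.86 (59 fragments, 6.02 to 10.1) at -7 bp in a peak of 801 bp. PCDHA11 reached 8.31 (58 fragments, 6.34 to 10.7) at 751 bp in a peak of 1281 bp, the widest of the 34. Its annotated gene start lies 774 bp upstream of the start of its Ensembl canonical transcript, and from the latter the summit was at -23 bp, so that 5 alpha genes had a promoter-centred peak.

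The second kind of alpha peak lay on a CTCF-like site inside the coding part of the variable exon. Such sites were read with a 20-base weight matrix built from the stronger RAD21 summits outside chromosome 5, at a score that 1% of control windows exceeded. Only the gene strand was searched for them, 400 to 1500 bp downstream of the annotated 5′ end. A site was found in 10 of the 13 alternate alpha genes, PCDHA4 to PCDHA13. These sites fell in a narrow range of 575 to 626 bp downstream of the canonical transcript start. The same search was not run over all protein-coding genes, of which 45.8% had a site on either strand within 1 kb of the 5′ end. Shown here are the 4 sites with a RAD21 summit within 50 bp, with the matrix match in capitals.
PCDHA4, chr5:140807630-140807669: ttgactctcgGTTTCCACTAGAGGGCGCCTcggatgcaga
PCDHA9, chr5:140848938-140848977: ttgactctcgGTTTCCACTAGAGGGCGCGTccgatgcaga
PCDHA12, chr5:140875915-140875954: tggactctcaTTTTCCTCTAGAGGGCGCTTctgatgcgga
PCDHA13, chr5:140882711-140882750: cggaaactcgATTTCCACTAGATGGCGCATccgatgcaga

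PCDHA13 had by far the strongest of these peaks, with a fold enrichment of 23.6 (162 fragments, 20.1 to 27.5), a summit at 596 bp and a width of 844 bp. PCDHA4 had a fold enrichment of 5.51 (37 fragments, 3.92 to 7.54) at 583 bp in 851 bp. PCDHA12 had 5.07 (34 fragments, 3.56 to 7.03) at 629 bp in 896 bp. The interval of PCDHA13 did not reach those of PCDHA4 and PCDHA12, although all 3 carry the exonic site at nearly the same place. The summits lay -29, -3 and -10 bp from the middle of the site at PCDHA4, PCDHA12 and PCDHA13. PCDHA9 had its nearest summit at 1157 bp, just outside the limit and -28 bp from its exonic site, with a fold enrichment of 4.78. PCDHA9 is annotated to start 610 bp upstream of its canonical transcript, and from that start the summit was at 547 bp, inside the limit.

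Several alpha peaks covered both elements. The intervals of 4 peaks, those of PCDHA4, PCDHA7, PCDHA10 and PCDHA12, contained the CGCT of the promoter and the exonic site together, with the summit on the exonic site at PCDHA4 and PCDHA12 and at the promoter in PCDHA7 and PCDHA10. The PCDHA11 peak also contained both when the CGCT was searched from the canonical transcript start, where it lies at -58 bp. At PCDHA3 the fold enrichment was 3.48 (23 fragments, 2.26 to 5.15), the summit was at 296 bp and the peak was 481 bp wide. PCDHA5 had the lowest alpha value, 2.90 (19 fragments, 1.80 to 4.44), at 267 bp in 340 bp. Both summits fell between the promoter and the middle of the exon, and neither was within 50 bp of a CTCF-like site. PCDHA6 had no summit closer than -6087 bp, and PCDHA2 had its nearest at 1510 bp, with a fold enrichment of 2.90.

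The C-type genes at the end of the alpha array, which are known to be expressed more broadly across neurons than the alternate genes, differed from each other. PCDHAC1 had the highest value of all 53 genes, a fold enrichment of 31.0 (213 fragments, 27.0 to 35.4), at 327 bp in a peak of 991 bp. PCDHAC2 had a fold enrichment of 3.19 (21 fragments, 2.03 to 4.80) at 225 bp in a peak of 264 bp. The intervals did not overlap. Both promoters were rich in G and C, 66.0% of the 300 bases around the 5′ end at PCDHAC1 and 62.3% at PCDHAC2, against a median of 35.7% in the alternate alpha genes. Neither summit had a match at the 1% threshold. The best match within 1 kb of the PCDHAC1 5′ end scored 10.3, below the threshold of 10.9, and was centred at 319 bp, next to the summit at 327 bp. It is shown because it marks the highest alpha peak.
PCDHAC1, chr5:140926608-140926627: TGCACCCCTAGGCGGCGCTG

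The beta genes had peaks at 10 of 16 members, and almost all were centred on the promoter: 9 of the 10 summits were within 60 bp of the 5′ end. The conserved element is shown for the highest beta peak, PCDHB13, for PCDHB10 and PCDHB3, which followed it, and for PCDHB12 and PCDHB15, which had no peak.
PCDHB13, chr5:141213857-141213900: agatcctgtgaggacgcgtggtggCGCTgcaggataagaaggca
PCDHB10, chr5:141192291-141192334: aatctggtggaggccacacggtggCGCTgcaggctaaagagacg
PCDHB3, chr5:141100385-141100428: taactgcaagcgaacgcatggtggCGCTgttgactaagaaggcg
PCDHB12, chr5:141208635-141208678: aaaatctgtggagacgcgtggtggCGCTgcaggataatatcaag
PCDHB15, chr5:141245306-141245349: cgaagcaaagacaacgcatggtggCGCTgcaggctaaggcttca

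PCDHB13 had a fold enrichment of 21.9 (150 fragments, 18.5 to 25.7) with the summit at -30 bp in a peak of 566 bp. PCDHB3 followed with 10.9 (74 fragments, 8.57 to 13.6) at -39 bp in 522 bp. PCDHB10 had 9.87 (93 fragments, 7.99 to 12.1) at -42 bp in 703 bp. PCDHB13 thus stood above both by more than the counting error, while the intervals of PCDHB3 and PCDHB10 overlapped. PCDHB14 had a fold enrichment of 8.08 (76 fragments, 6.39 to 10.1) at -45 bp in 608 bp. PCDHB11 had 6.09 (41 fragments, 4.41 to 8.21) at -34 bp in 341 bp. PCDHB9 had 5.60 (47 fragments, 4.14 to 7.40) at -22 bp in 365 bp. These neighbours in the 3′ part of the array overlapped in their intervals, as did the following pair with each other. PCDHB7 had a fold enrichment of 5.48 (40 fragments, 3.95 to 7.41) at -33 bp in 394 bp. PCDHB5 had 4.78 (32 fragments, 3.32 to 6.69) at 23 bp in 294 bp.

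The weakest beta peaks were those of PCDHB8 and PCDHB2. PCDHB8 had a fold enrichment of 3.89 (34 fragments, 2.73 to 5.39) at 127 bp in a peak of 306 bp, the only beta summit more than 60 bp from its 5′ end. PCDHB2 had 2.75 (18 fragments, 1.69 to 4.27) at 9 bp in 316 bp. The PCDHB8 promoter is a close copy of the PCDHB13 promoter, with 8 differences in 140 aligned bases, yet its fold enrichment was 3.89 and that of PCDHB13 was 21.9. Within 1 kb of either 5′ end, 28.7% of all stretches of 100 bases had another exact copy in the assembly. Within 150 bp the share was 28.2% at PCDHB8 and 37.1% at PCDHB13. A single read of this length therefore cannot be placed uniquely in part of both windows. The libraries were sequenced and aligned as read pairs, and what the copies do to these values was not tested.

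Peaks and empty promoters alternated along the beta array rather than forming 1 block. In order from the 5′ side, PCDHB1 had none, PCDHB2 and PCDHB3 had one each, PCDHB4 none, PCDHB5 one, PCDHB6 none, PCDHB7 and PCDHB8 one each, PCDHB16 none, PCDHB9, PCDHB10 and PCDHB11 one each, PCDHB12 none, PCDHB13 and PCDHB14 one each, and PCDHB15 none. The nearest summits of the 6 genes without a peak were 2857 to 22097 bp away. PCDHB1 is the beta gene known to lack the conserved element. PCDHB4, PCDHB12, PCDHB15 and PCDHB16 held the same TGGCGCT as the beta genes with a peak, and PCDHB6 held no CGCT in the window searched.

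The gamma A and gamma B genes had peaks at 12 of 19 members, with every one of the 12 summits within 60 bp of the 5′ end and 10 of them upstream of it. The element is shown for the strong peaks at PCDHGA10 and PCDHGB2, for PCDHGA2, and for PCDHGA6 and PCDHGC3, which had no peak.
PCDHGA10, chr5:141412923-141412966: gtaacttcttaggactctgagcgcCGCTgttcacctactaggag
PCDHGB2, chr5:141359913-141359956: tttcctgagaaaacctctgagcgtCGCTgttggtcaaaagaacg
PCDHGA2, chr5:141338695-141338738: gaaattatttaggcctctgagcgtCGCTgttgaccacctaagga
PCDHGA6, chr5:141373827-141373870: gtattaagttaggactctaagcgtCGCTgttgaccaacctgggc
PCDHGC3, chr5:141475872-141475915: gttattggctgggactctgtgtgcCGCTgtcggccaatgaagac

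The strongest gamma peaks were neighbours near the 3′ end of the variable exons. PCDHGB7 had a fold enrichment of 22.03 (151 fragments, 18.7 to 25.8) with the summit at -43 bp in a peak of 675 bp. PCDHGA10 had 19.1 (143 fragments, 16.2 to 22.5) at -19 bp in 851 bp. PCDHGB6, immediately upstream of PCDHGA10, had only 4.20 (28 fragments, 2.84 to 6.01) at -45 bp in 580 bp. PCDHGA11, on the other side, had 6.38 (43 fragments, 4.65 to 8.54) at -20 bp in 347 bp. The intervals of PCDHGA10 and PCDHGB7 overlapped each other and neither reached those of the flanking genes.

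PCDHGB6 and PCDHGB7 have related promoters with different letters in the core. When 140 bases around their 5′ ends were aligned, 21 differed, and counting from 1 at the first base of the PCDHGB6 stretch, 120 bases before its 5′ end, T43C fell in the CGCT. The aligned stretches are shown with the core position in capitals.
PCDHGB6, chr5:141407916-141407959: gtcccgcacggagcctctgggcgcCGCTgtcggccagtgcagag
PCDHGB7, chr5:141417575-141417618: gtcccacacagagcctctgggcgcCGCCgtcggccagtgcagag
PCDHGB7, with the altered core, had a fold enrichment of 22.03, and PCDHGB6 had 4.20. The PCDHGB7 summit at -43 bp lay next to the altered core, which starts at -46 bp. Both promoters hold a further intact CGCT at base 64 of the alignment, at -57 bp in PCDHGB6 and at -22 bp in PCDHGB7. For PCDHGB7 that further CGCT was counted as its element in the numbers below.

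The upstream gamma genes formed a run of 6 consecutive promoters with a peak, PCDHGA2 to PCDHGA5. PCDHGA2 had a fold enrichment of 5.07 (34 fragments, 3.56 to 7.03) at -30 bp in a peak of 552 bp. PCDHGA3 had 5.51 (37 fragments, 3.92 to 7.54) at -28 bp in 596 bp. PCDHGB1 had 6.96 (47 fragments, 5.15 to 9.20) at -55 bp in 547 bp. The intervals of these 3 overlapped. PCDHGA4 had a fold enrichment of 6.38 (43 fragments, 4.65 to 8.54) at -31 bp in 536 bp. PCDHGB2 had 10.1 (69 fragments, 7.93 to 12.8) at -57 bp in 531 bp, the highest of the run. PCDHGA5 had 3.24 (22 fragments, 2.08 to 4.83) at 3 bp in 455 bp, the lowest. In the middle of the array, PCDHGB4 had a fold enrichment of 3.91 (26 fragments, 2.61 to 5.67) at 32 bp in 536 bp. PCDHGA9 had 7.23 (61 fragments, 5.56 to 9.25) at -32 bp in 444 bp.

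The 10 gamma genes without a summit within 1 kb were PCDHGA1, PCDHGB3, PCDHGA6, PCDHGA7, PCDHGA8, PCDHGB5, PCDHGA12, PCDHGC3, PCDHGC4 and PCDHGC5. PCDHGA8 is annotated to start 2476 bp upstream of its canonical transcript, and a peak of fold enrichment 5.86 with 77 fragments had its summit at -25 bp from that canonical start. The other 6 gamma A and gamma B genes had their nearest summits between 4799 and 9726 bp away. PCDHGB5 and PCDHGB4 shared all but 2 of 140 aligned bases around the 5′ end (A18C and G73C, counted from 120 bases before the PCDHGB4 5′ end), and PCDHGB4 had a peak whereas PCDHGB5 had its nearest summit at 4799 bp. Within 1 kb of either start, 20.7% of stretches of 100 bases had another exact copy, and none did within 150 bp. The C-type genes PCDHGC3, PCDHGC4 and PCDHGC5 had no summit closer than 23448 bp.

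The promoter element and the summit were close in most beta and gamma genes with a peak. CGCT was found on the gene strand between 100 bases before and 20 after the 5′ end in 48 of the 53 genes, against 37.6% of all protein-coding genes, and on either strand in 50 of the 53 genes, against 57.4%. The 5 genes without it on the gene strand were PCDHA11, PCDHB6, PCDHGA8, PCDHGA12 and PCDHGC5. From their canonical transcript starts, PCDHA11 and PCDHGA8 held it at -58 and -49 bp. PCDHA9, with CGCT at 2 bp from its annotated start, held none near its canonical start. At the annotated starts CGCT was present at 33 of the 34 genes with a peak and at 15 of the 19 without, so these letters alone did not separate the groups. The counts include PCDHAC2, PCDHB1 and PCDHGC4, which are known to lack the conserved element, so they do not count that element. In 18 of the 22 beta and gamma genes with a peak, the summit was within 40 bp of the CGCT taken as the element. The exceptions were PCDHGA5 at 41 bp, PCDHB2 at 54 bp, PCDHGB4 at 96 bp and PCDHB8 at 123 bp. Such closeness was partly fixed by the search, since CGCT was read only near the 5′ end and 21 of the 22 summits lay within 60 bp of that end. The same share was not counted for other genes.

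The letters around CGCT differed by array. TGTCGCT was found on the gene strand in 11 of 15 alpha, 1 of 16 beta and 3 of 22 gamma genes, and in 0.384% of all protein-coding genes (0.654% on either strand). TGGCGCT was found in 14 of 16 beta genes, 2 of 22 gamma genes and no alpha gene, against 1.21% of all (2.07% on either strand). CGCTGTT, which overlaps the end of the other patterns, was found in 12 of 22 gamma genes, 1 of 16 beta genes and no alpha gene, against 0.539% of all (1.07% on either strand). In these genes no pattern was added by searching the other strand. The CGCT and 7-letter searches were chosen after the sequences had been seen, and a match is a run of letters, not evidence of binding.

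Matches to the CTCF-like matrix were also read near every 5′ end. A site at the 1% threshold lay within 150 bp of the 5′ end at 12 of the 53 genes, against 15.4% of all protein-coding genes, and within 1 kb at 22, against 45.8%. Of the 12, 10 had a peak. By array they were 5 alpha, 6 beta and 1 gamma gene. In the beta array all 6 genes with such a site had a peak, and the 6 beta genes without a peak had none. The other beta genes with a peak also had no site: PCDHB13 scored 9.20, PCDHB3 10.1, PCDHB2 8.88 and PCDHB8 6.42. Beta genes without a peak scored from 2.06 at PCDHB1 to 8.88 at PCDHB4. At the 0.1% threshold, a score of 15.4, only PCDHB9 and PCDHB10 kept a site among the beta genes. PCDHGA12 was the gamma gene with a site, scoring 12.5, and PCDHA2 was an alpha gene with a site scoring 11.1; neither had a peak within 1 kb. Their matches are shown for comparison with the elements above.
PCDHGA12, chr5:141430439-141430478: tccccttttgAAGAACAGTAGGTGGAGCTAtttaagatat
PCDHA2, chr5:140794772-140794811: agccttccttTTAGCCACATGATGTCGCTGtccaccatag

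The highest score near a 5′ end was at PCDHB9, 20.5, where the fold enrichment was 5.60. The beta and gamma genes with the highest peaks, whose summits lie in the 150 bp scored, had lower scores, with 9.2 at PCDHB13, 3.0 at PCDHGB7 and 2.2 at PCDHGA10. The summits of PCDHA13 and PCDHAC1 lie outside these 150 bp, where the scores were 2.4 and 4.3. At its summit PCDHA13 has the exonic site, with a score of 15.9, and the match next to the PCDHAC1 summit scored 10.3. No gamma gene with a peak reached the threshold within 150 bp, the highest being 9.3 at PCDHGB2. The matrix was built from peaks outside chromosome 5, and how well it reads the gamma element was not tested.

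Away from the gene 5′ ends, 25 of the 59 peaks of the region remained, and the most prominent inside the clusters lay between the alpha and beta arrays. The 80.9 kb from the last alpha variable exon to PCDHB1 held 2 peaks about 1 kb apart, with fold enrichments of 21.1 (200 fragments, 18.3 to 24.2) and 26.1 (250 fragments, 22.95 to 29.5). Their summits were at -11038 and -10022 bp from the PCDHB1 5′ end. Enhancers of the alpha array are known to lie downstream of its constant exons, and whether these peaks coincide with them was not tested. Both had a CTCF-like site on the strand opposite to the genes, shown as read on the minus strand.
Peak at -11038 bp from PCDHB1, chr5:141040349-141040388: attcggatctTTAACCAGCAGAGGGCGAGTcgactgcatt
Peak at -10022 bp from PCDHB1, chr5:141041358-141041397: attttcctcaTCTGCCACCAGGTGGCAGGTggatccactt

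The gamma 3′ end carried a further peak with an opposite site. It was the only peak in the 79.8 kb from the end of the PCDHGA12 variable exon to the end of the array, which includes PCDHGC3, PCDHGC4, PCDHGC5 and the gamma constant exons. Its fold enrichment was 13.6 (93 fragments, 11.02 to 16.7), its width 850 bp and its summit 23448 bp downstream of the PCDHGC5 5′ end. The matrix match at its summit, read on the minus strand, is shown because it is the only site at a summit in the 3′ part of the gamma array.
Gamma 3′ end, chr5:141512489-141512528: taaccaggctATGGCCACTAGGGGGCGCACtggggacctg

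CTCF-like sites at the summits were oriented by position. Of the 34 peaks at gene 5′ ends, 11 had a site within 50 bp of the summit, and all 11 lay on the strand of the genes. Of the 25 other peaks, 15 had a site, 7 on the strand of the genes and 8 on the opposite strand. Among the 14 peaks over the alpha variable exons and the 13 over the beta genes, 13 had a site and none of these was opposite to the genes. The 13 peaks over the gamma A and gamma B variable exons had no site at all. Over all 59 peaks 26 had a site (44.1%), and over all 56853 peaks the share was 55.3%.

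Peaks were denser over the variable exons than between the arrays. The gamma A and gamma B exons held 13 peaks in 104 kb, or 125 per Mb, the alpha exons 75.9 per Mb and the beta genes 65.3 per Mb. The stretch between PCDHB15 and PCDHGA1 held 1 peak in 80.1 kb, with a fold enrichment of 5.07, in the gene of the transcription factor subunit TAF7. The flanks held 25.1 peaks per Mb upstream and 50 downstream of the arrays, so a density above that of the genome was not confined to the arrays. The whole region held 52.4 peaks per Mb, chromosome 5 held 15.3 and the genome 19.2. The median fold enrichment of the 59 peaks was 6.30, and 28.8% of them had a fold enrichment of 10 or more, against 5.58 and 27.2% of all peaks.

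The 3 highest peaks of the region included only 1 at a gene of the arrays, PCDHAC1 with 31.0. The highest, with a fold enrichment of 57.5 (480 fragments, 52.5 to 62.9), lay in the flank 203184 bp downstream of the PCDHGC5 5′ end. The remaining one, with 29.5 (252 fragments, 26.0 to 33.4), lay 213261 bp downstream of it. Both flank peaks had a site on the strand of the genes.

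Other gene families served as comparison. Of 12 non-clustered protocadherins, which have their own separate loci, 1 had a summit within 1 kb of the 5′ end, PCDH1 with a fold enrichment of 45.2 at -91 bp. Of 39 HOX genes 12 had one (30.8%), of 249 ZNF genes of chromosome 19 it was 87 (34.9%), and of 178 olfactory receptor genes of chromosome 11 it was 2 (1.12%). The clustered protocadherins, at 64.2%, had the largest share among these 5 sets. Among genes with a summit, the share placed within 60 bp of the 5′ end was 8.33% in the HOX genes and 5.75% in the ZNF genes.

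Promoter composition overlapped between genes with and without a peak. Over the 300 bases at the 5′ end, the 34 genes with a peak had a median of 38.7% G and C (27.0% to 66.0%) and 6.5 CpG, and the 19 without had 41.0% (29.7% to 59.7%) and 7 CpG. Exact copies of 100-base stretches within 1 kb occurred at 13 of the 34 genes with a peak and at 3 of the 19 without. Neighbouring 5′ ends were 2459 bp apart at the closest, with a median of 6704 bp, so no summit could be assigned to 2 genes.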

How the data were processed

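RAD21 ChIP-seq of 1 wild-type untreated HCT116 library was used; 3 other libraries of the series were not analysed here. The authors trimmed reads with Trimmomatic 0.39, aligned them with Bowtie2 2.5.3 to GRCh38 and removed duplicates with Picard. They called peaks with MACS2 2.2.9.1 against an Input at a q-value limit of 0.05. The deposited peak list gives a score, fold enrichment (a ratio to local background) and −log10 p- and −log10 q-values, as the authors computed them. It states no library total, so depth is given as fragments at each summit. These were recovered here from fold and p and were whole within 0.05 for all but 14 of 56853 peaks.

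Summits were assigned to GENCODE version 44 gene 5′ ends within 1 kb, and no peak ran past the end of its reference sequence. A CTCF-like matrix was built from 9269 sites at summits of fold enrichment 10 or more outside chromosome 5, and sites were called at the score that 1% of control windows exceeded. Matrix, copy search, assignment and recovery were tested on simulated data. Scripts ran under Python 3.11.15 with pysam 0.24.0 for sequence access and scipy 1.17.1. Named genes are all 53 members. Other peaks named by rule are those between the alpha variable exons and PCDHB1, those between PCDHGC3 and the gamma 3′ end, and the 3 highest. Further peaks with values (in TAF7, near PCDHB2, PCDHB17P and the vault RNA genes, and in the downstream flank) were chosen after their values were seen. Members, lists and tests were chosen with earlier results of these data known. No test was run, since there is 1 library.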

Additional observations from a re-analysis of the deposited data

How the results depend on the processing

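Of 30 alternative settings, 25 left the value within 1.5 times that reported. The number of genes with a summit within 1 kb (34) ranged from 25 to 36 with distance limits of 60 bp (added after the data were seen) to 2 kb, canonical 5′ ends, whole peak intervals and q-values down to 1e-05. The count at fold enrichment 10 or more (7) was 6 at 500 bp and 7 otherwise. The region held 43 to 57 peaks, and the median fold enrichment of peaks at gene 5′ ends was 5.55 to 6.38. The 5 results that moved all concern CTCF-like sites. The genes with a site within 1 kb (22) fell to 5 with the 0.1% threshold, 3 with the exact CTCF consensus and 12 within 150 bp, and the peaks with a site (26) to 17 with the 0.1% threshold and 10 with the exact consensus. These settings ask for a closer match or a shorter window by construction. No paired analysis was possible because there is 1 library and no comparison between groups. Weak peaks limit the counts: 30 of the 34 genes kept a summit at a q-value of 1e-05. The Input used for the wild-type library is not named in the sources used here.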

Other observations

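Of 6 protocadherin pseudogenes in the arrays, PCDHB17P had a RAD21 summit within 1 kb of its annotated start, at -234 bp with a fold enrichment of 4.06 and 27 fragments. PCDHA14, PCDHB18P, PCDHB19P, PCDHGB8P and PCDHGB9P had their nearest summits -5259 to -18826 bp away. A peak of fold enrichment 7.39 with 50 fragments and a CTCF-like site on the strand of the genes lay -9987 bp from PCDHB2, inside the antisense transcript PCDHB1-AS1.

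In the upstream flank, peaks lay 1392 bp from the start of VTRNA1-1 and 1433 bp from that of VTRNA1-2, which encode vault RNAs, with fold enrichments of 3.98 and 10.2. The local background there was 12.3 and 13.3 fragments, above the 5.90 of most peaks at the gene 5′ ends. In the downstream flank, 4 peaks with a CTCF-like site opposite to the protocadherin genes lay in or beside DIAPH1, which encodes an actin-nucleating formin, with fold enrichments of 13.9, 10.8, 6.30 and 12.9. Between these, DIAPH1 also held a peak of fold enrichment 5.34 with a site on the strand of the genes, and another of 8.49 without a site. Beyond DIAPH1, 3 peaks of fold enrichment 24.9, 57.5 and 29.5 had sites on the strand of the genes.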
